A study of Mus musculus with 2 samples.

Results

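The Rab and Vps membrane trafficking genes are taken here as the mouse protein-coding genes whose symbol is Rab or Vps followed by a digit. There were 104 of them among 21887 protein-coding genes on the assembled chromosomes, with 69 Rab genes and 35 Vps genes. Rab proteins are small GTPases that mark the membranes of a cell and recruit the factors that move, tether and fuse vesicles. Vps proteins, named after yeast mutants with faulty vacuolar protein sorting, form most of the complexes that sort cargo through endosomes to the lysosome, such as ESCRT, retromer, HOPS, CORVET and GARP. In blood cells such traffic recycles or degrades surface receptors and builds lysosomes and granules. The pattern also takes in genes for proteins that bind or regulate Rab GTPases, such as Rab11fip1 and Rab3gap1, and Vps72, whose product is a histone chaperone for H2A.Z and is not known for membrane traffic. A further 9 non-coding genes and pseudogenes fit the symbol pattern and were left out.

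Peaks came from a chromatin immunoprecipitation with an antibody to Usp16, an enzyme that removes ubiquitin from histone H2A, in mouse bone marrow cells positive for c-Kit and Sca-1. An IgG precipitation from such cells was the control, with 1 library for each antibody and no replicates. All mice had floxed Usp16 alleles and Mx1-Cre, in which an interferon-responsive promoter drives the recombinase. The labels give neither the age of the animals, nor how many were pooled, nor whether Cre had been induced, so the Usp16 status of the cells cannot be told. The deposited list had 5079 peaks, 5046 of them on assembled chromosomes, with the peak caller's own score from 50 upwards and a median of 70.1. Read depth is unknown, no signal of the IgG library was analysed here, and a list of peaks holds no expression by which the cell type could be checked. A gene without a listed peak is therefore a gene without a peak past the caller's threshold, which does not show absent binding.

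The question asked of these genes was where the anti-Usp16 peaks lay among them. Throughout, a gene-end peak is one that shares at least 1 bp with the window of 1 kb on both sides of an annotated end of the gene. By this measure 27 of the 104 genes had a gene-end peak, which is 26.0% (exact Clopper-Pearson 95% interval 17.9 to 35.5%), where 13.9% of all protein-coding genes had one. The Vps genes made up the larger share, with 14 of 35 (40.0%, interval 23.9 to 57.9%), and of the Rab genes 13 of 69 had one (18.8%, interval 10.4 to 30.1%). The interval of the Rab share includes 13.9%. These intervals cover counting error only, and no test of the families was made, since 1 list without replicates allows no comparison over samples. The families were also chosen with earlier results of these data known, so the intervals cannot serve as a test against 13.9%. A further 5 genes, 4.81%, had a peak inside the gene and none at its ends, beside 4.04% of all protein-coding genes. The other 72 genes had no peak at all. Chromosome X holds 4 Rab genes, with a gene-end peak at none of them, beside 3.73% of its 966 protein-coding genes.

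The 28 distinct gene-end peaks scored between 51.3 and 177, below the maximum of 582 at ends of protein-coding genes. The Vps genes had a median highest score of 92.8, from 63.0 to 177 in 14 genes. The Rab genes had a median of 71.9, from 56.2 to 174 in 13 genes, and all 3033 protein-coding genes with a gene-end peak had a median of 75.6 (quartiles 60.1 and 108). Scores of 100 or more were found at 6 Vps genes and 3 Rab genes. The families overlapped over most of their range, and the plot of scores shows a group of 5 Vps genes between 136 and 177. These were Vps13d, Vps72, Vps52, Vps51 and Vps29. The peaks at Vps52, Vps51 and Vps29 also reached an end of another protein-coding gene, and Vps72 is not known for membrane traffic.

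**Figure D1:**
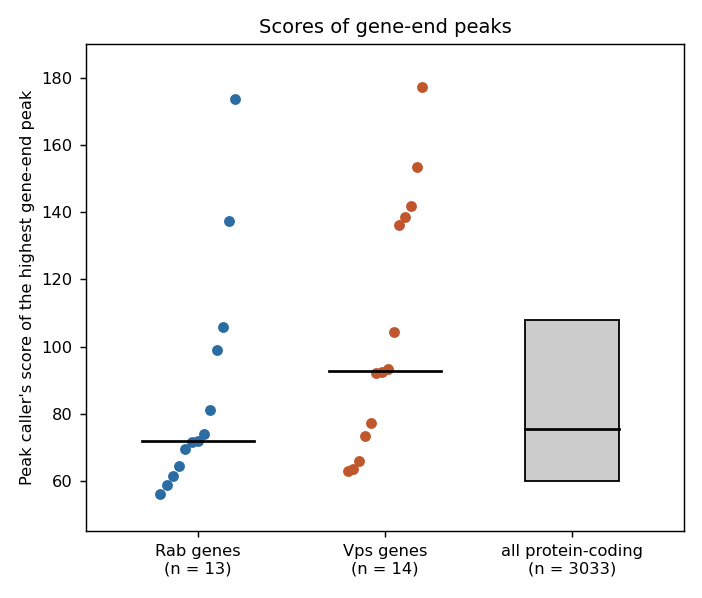
Peak caller's score of the highest-scoring gene-end peak of each Rab gene (blue points, n = 13) and each Vps gene (orange points, n = 14), with points spread sideways by rank and black lines at the medians (71.9 and 92.8). The grey box gives the quartiles of all 3033 protein-coding genes with a gene-end peak (60.1 and 108) and its line their median (75.6); both families overlap the box.

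The highest score of the families was at Vps13d, which encodes a large protein that carries lipids between membranes at contact sites. Its peak had a score of 177 and a width of 624 bp (chromosome 4, 145194781 to 145195404), ranked 285 of 5046, and lay over the upper end of a gene of 324 kb. Rab33b, a Golgi GTPase that also binds the autophagy factor Atg16l1, came next at 174 (width 860 bp, chromosome 3, 51483532 to 51484391). Vps72 had a peak of 153 (chromosome 3, 95110688 to 95111627). Vps52, a subunit of the GARP and EARP tethers, had one of 142 (chromosome 17, 33955234 to 33956220). Vps51, which encodes a partner of Vps52 in both tethers, had one of 139 at its upper end and a weak one of 51.3 at its lower end, and was the only member with 2 gene-end peaks. Rab5if, named as an interaction partner of Rab5, had a peak of 137 (width 542 bp, chromosome 2, 156862590 to 156863131). These were followed by Vps29, a subunit of retromer and retriever, at 136 (chromosome 5, 122353849 to 122354677). None of the other members with gene-end peaks scored above 106.

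For 78 of the 104 genes the RefSeq promoter table (build GRCm38.p6, another name for mm10) gave a strand, so that start and end of transcription could be told apart. Of these, 20 had a gene-end peak, and in all 20 the peak lay at the start. This is 25.6% of the 78, beside 13.4% of the 17492 protein-coding genes with a strand. No peak lay at the end of transcription in any of the 78 genes, where 1.65% of all such genes had one. With 78 genes the exact upper limit is 4.62%, so the difference is within counting error. The other 7 members with a gene-end peak are outside the 78, as no strand was given for them. They are Rab30, Vps13b, Vps28, Vps33b, Vps35l, Vps51 and Vps72, so the start and promoter results leave out more of the Vps genes with a peak. Vps51 had a peak at each end, so its end of transcription had one. Among genes longer than 10 kb with a gene-end peak, 18 of 18 members had it at the start, beside 94.2% of 1752 protein-coding genes. Each of the 20 peaks covered the start base itself, where 85.4% of 2348 start peaks of all protein-coding genes did. The midpoints lay from 261.5 bp upstream to 206 bp downstream of the start, with a median of -40.5 bp (negative is upstream), and the median over all protein-coding genes was -10.5 bp. The plot of start peaks shows 14 midpoints upstream of the start and 6 downstream. Their median width was 744 bp, beside 803 bp over all protein-coding genes.

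**Figure D2:**
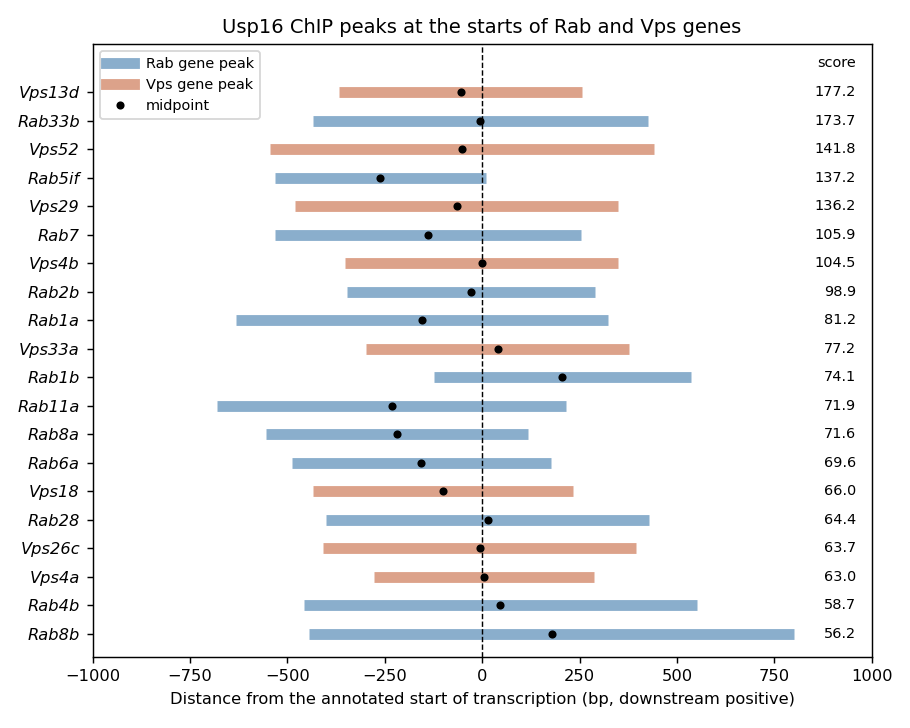
The 20 Rab (blue) and Vps (orange) genes with a strand and a gene-end peak, sorted by score, with each peak drawn as a bar over its distance from the annotated start of transcription (bp, downstream positive), its midpoint as a dot and its score at the right. Every bar crosses the dashed line at the start, with midpoints between -261.5 and 206 bp.

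The promoters at the highest-scoring start peaks are printed here to show the DNA around these starts. Vps72 and Vps51 had higher scores than Rab5if but no strand, so they are not printed. The Rab5if peak ends at 156863131, before the end of its window. Each line gives the 250 bases before and 50 bases after the start in the RefSeq table, on the strand of the gene and 5′ to 3′, with capitals for GGGCGG (the GC box), CCGGAAG (an ETS core), CCAAT and CACGTG (an E-box) on either strand, and at Rab33b for a palindrome of 10 bases that is found in some housekeeping promoters. The windows are chr4:145194956-145195255 on the minus strand for Vps13d, chr3:51483716-51484015 on the plus strand for Rab33b, chr17:33955550-33955849 on the plus strand for Vps52, and chr2:156862872-156863171 on the plus strand for Rab5if.
Vps13d: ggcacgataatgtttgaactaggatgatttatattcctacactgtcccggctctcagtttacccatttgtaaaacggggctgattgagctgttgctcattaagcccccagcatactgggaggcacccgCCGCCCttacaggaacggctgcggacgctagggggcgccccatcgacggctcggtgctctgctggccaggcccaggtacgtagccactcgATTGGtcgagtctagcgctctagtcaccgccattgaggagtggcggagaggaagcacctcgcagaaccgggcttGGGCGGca
Rab33b: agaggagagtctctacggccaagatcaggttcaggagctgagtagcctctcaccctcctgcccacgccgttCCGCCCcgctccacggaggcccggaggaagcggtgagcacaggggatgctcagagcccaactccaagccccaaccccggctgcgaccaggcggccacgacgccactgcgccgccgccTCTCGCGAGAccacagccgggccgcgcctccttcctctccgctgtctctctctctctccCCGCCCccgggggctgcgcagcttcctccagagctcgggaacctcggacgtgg
Vps52: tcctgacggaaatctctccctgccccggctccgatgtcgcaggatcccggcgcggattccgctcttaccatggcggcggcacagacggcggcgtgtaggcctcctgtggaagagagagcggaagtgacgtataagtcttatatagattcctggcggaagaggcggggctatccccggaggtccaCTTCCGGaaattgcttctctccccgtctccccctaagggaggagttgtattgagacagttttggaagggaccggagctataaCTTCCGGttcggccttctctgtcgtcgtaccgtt
Rab5if: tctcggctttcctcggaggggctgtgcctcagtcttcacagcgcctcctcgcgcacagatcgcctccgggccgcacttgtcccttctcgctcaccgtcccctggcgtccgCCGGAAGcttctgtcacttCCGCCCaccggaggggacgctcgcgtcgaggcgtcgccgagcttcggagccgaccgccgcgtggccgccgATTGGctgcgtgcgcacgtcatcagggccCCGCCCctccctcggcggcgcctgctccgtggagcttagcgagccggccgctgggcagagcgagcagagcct
The Rab33b window has 28 CpG dinucleotides and a copy of this palindrome, and it was the only member window with it. The Vps52 window has 26 CpG and both of its marked motifs are ETS cores, while that of Rab5if has 41 CpG, an ETS core, a CCAAT box and GC boxes. The Vps13d window has 21 CpG, GC boxes and a CCAAT box.

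The members were then grouped by role. These groups are small, and their shares were not tested against each other or against the 13.9% of all protein-coding genes. Among Rab GTPases of the endoplasmic reticulum (ER) and Golgi, 6 of 13 had a gene-end peak (46.2%). Both copies of Rab1, the GTPase of ER to Golgi transport, had one, with scores of 81.2 at Rab1a (chromosome 11, 20200781 to 20201734) and 74.1 at Rab1b (chromosome 19, 5106460 to 5107120). Rab2b, of Golgi structure and traffic, had one of 98.9 and Rab6a, of retrograde Golgi traffic, one of 69.6. Rab30, a Golgi GTPase, had one of 61.5, and Rab33b is given above. Rab2a, Rab6b, Rab18, Rab19, Rab33a, Rab36 and Rab43 had none.

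Early endosome GTPases had 0 of 9. Rab5a, Rab5b and Rab5c, which drive fusion of early endosomes, all lacked a gene-end peak, with the nearest peak 181, 7.57 and 94.8 kb from a gene end. Rab17, Rab20, Rab21, Rab22a, Rab24 and Rab31 had none either. A count of 0 in 9 genes allows a share of up to 33.6% (exact 95% limit), so 13.9% is within counting error.

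Endocytic recycling GTPases had 2 of 9 (22.2%). Rab11a, of the recycling endosome, had a peak of 71.9 (chromosome 9, 64737541 to 64738436) and Rab4b, of fast recycling, one of 58.7 (chromosome 7, 27178332 to 27179340). The Rab11a midpoint lay 232.5 bp from the start of Rab11a and 57.5 bp from an end of the tRNA gene n-TQctg9, and was the only gene-end peak of the families within 1 kb of an end of a tRNA, snRNA or snoRNA gene. Rab4a, Rab11b, Rab12, Rab14, Rab15, Rab25 and Rab35 had none. Late endosome and lysosome GTPases had 1 of 9 (11.1%), namely Rab7, the main GTPase of late endosomes, at 106 (chromosome 6, 88045016 to 88045802). Rab7b, Rab9, Rab9b, Rab29, Rab32, Rab38, Rab39 and Rab39b had none.

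Among GTPases of secretion 2 of 13 had a gene-end peak (15.4%), close to the 13.9% of all protein-coding genes, and these were the copies of Rab8, which directs exocytosis and traffic to cilia. The scores were 71.6 at Rab8a and 56.2 at Rab8b, the lowest best score in either family, although the Rab8b peak was the widest of the start peaks at 1245 bp. The neuronal and granule GTPases of this group, Rab3a, Rab3b, Rab3c, Rab3d, Rab26, Rab27a, Rab27b and Rab37, had no gene-end peak, and neither had Rab10, Rab13 and Rab44. Of 6 other GTPases (16.7% with a peak), only Rab28, known from photoreceptor cilia, had one, of score 64.4, while Rab23, Rab34, Rab40b, Rab40c and Rab42 did not. Among 10 genes for Rab-binding and regulatory proteins Rab5if alone had one (10%), and none of 5 Rab11fip genes or of the Rab3gap pair did.

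In each of the 6 Vps groups the share of genes with a gene-end peak was between 33.3% and 50%, as the plot of shares by role shows. These groups hold 3 to 9 genes each, and their shares were not tested. ESCRT proteins, which bud vesicles into endosomes, had 3 of 9. Both copies of Vps4, the ATPase that takes ESCRT filaments apart, had a peak, with 63.0 at Vps4a (chromosome 8, 107030991 to 107031556) and 104 at Vps4b (chromosome 1, 106796376 to 106797077). The ESCRT-I gene Vps28 had one of 92.1, but none of its 4 Vps37 partners did, and the ESCRT-II gene Vps36 had none.

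Retromer and retriever, which return cargo from endosomes, had 3 of 6, and the peaks were listed at the retriever genes. All 3 subunits of retriever had a peak, with 92.3 at Vps35l (chromosome 7, 118739896 to 118740961), 63.7 at Vps26c (chromosome 16, 94526234 to 94527036) and 136 at Vps29, which retromer shares. The other retromer genes, Vps35, Vps26a and Vps26b, had none, and their nearest peaks were 179, 537 and 146 kb away. Without peaks shared with another protein-coding gene Vps29 had none, and at or above the median score Vps26c had none, so the retriever set is complete under neither setting. This split was seen after the values, in 6 genes, and was not tested.

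The group of HOPS and CORVET, which tether endosomes and lysosomes, also counted the related gene Vps33b and had 3 of 8. Vps18, a core subunit of both, had a peak of 66.0, and Vps33a, the SM protein (a guide of SNARE assembly) of these tethers, one of 77.2. Vps33b, a related SM protein needed for platelet granules, had one of 93.3. Vps8, Vps11, Vps16, Vps39 and Vps41 had none. The GARP and EARP tethers had 2 of 5, Vps51 and Vps52, while Vps50, Vps53 and Vps54 had none. Among the lipid transfer genes, Vps13d and Vps13b (73.3) had a peak, and Vps13a and Vps13c had none. In the last group Vps72 had one, and Vps9d1 and Vps45 had none at an end.

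**Figure D3:**
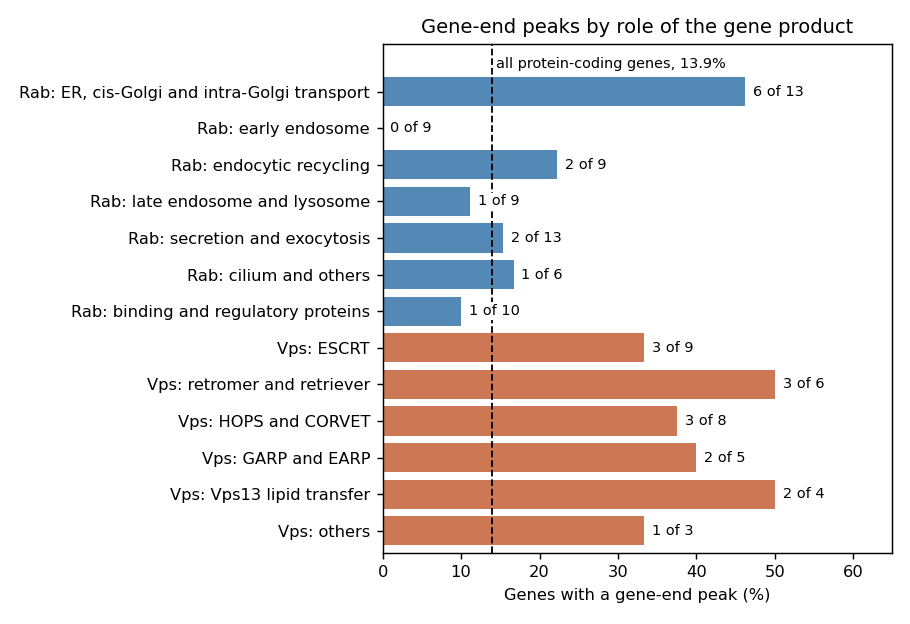
Percent of genes with a gene-end peak in each of 13 role groups of Rab (blue) and Vps (orange) genes, with the counts beside the bars and a dashed line at 13.9%, the share of all protein-coding genes. Every Vps bar passes the line, and among Rab groups the bar of the ER and Golgi group is the longest and that of the early endosome group is at 0. The groups are small and no share was tested.

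Related genes that share a number were also compared. Of 16 such families with 2 genes, counting Vps35 with Vps35l, 4 had a gene-end peak at both, 7 at 1 gene and 5 at neither. Taken gene by gene, the share was 26.0% of all members and 13.9% of all protein-coding genes. Rab1, Rab8, Vps4 and Vps33 had it at both genes. Rab2, Rab4, Rab6, Rab7, Rab11, Rab33 and the Vps35 and Vps35l pair had it at 1. Rab9, Rab27, Rab39, Rab40 and Rab3gap had it at neither. In the larger families the counts were 0 of 4 for Rab3, 0 of 3 for Rab5, 0 of 5 for Rab11fip, 0 of 4 for Vps37, 1 of 3 for Vps26 and 2 of 4 for Vps13. With so few genes a count of 0 does not set a family apart from the 13.9% of all protein-coding genes, and no count was tested. Rab6 is shown as an example, chosen after its values were seen, because Rab6a is broadly expressed and Rab6b is known mainly from neurons. The windows are chr7:100607336-100607635 for Rab6a and chr9:103111824-103112123 for Rab6b, both on the plus strand, with capitals as above.
Rab6a: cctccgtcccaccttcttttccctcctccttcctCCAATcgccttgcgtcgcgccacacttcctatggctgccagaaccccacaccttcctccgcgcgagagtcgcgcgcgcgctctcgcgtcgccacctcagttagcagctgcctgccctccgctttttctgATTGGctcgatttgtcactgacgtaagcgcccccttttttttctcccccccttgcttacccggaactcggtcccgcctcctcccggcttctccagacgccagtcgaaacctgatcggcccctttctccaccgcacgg
Rab6b: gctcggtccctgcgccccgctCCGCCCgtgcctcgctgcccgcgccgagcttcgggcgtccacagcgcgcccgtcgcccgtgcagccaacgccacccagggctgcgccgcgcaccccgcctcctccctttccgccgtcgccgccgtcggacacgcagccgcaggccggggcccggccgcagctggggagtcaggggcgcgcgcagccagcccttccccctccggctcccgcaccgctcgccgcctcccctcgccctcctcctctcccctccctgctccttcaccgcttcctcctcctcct
Rab6a had a start peak of 69.6 and Rab6b had none, its nearest peak lying 327 kb from an end. The Rab6a window has 29 CpG and that of Rab6b 42. In the other pairs with 1 peak and both promoters in the table the gene with the peak had the higher number, 28 at Rab33b and 7 at Rab33a, and 16 at Rab11a and 12 at Rab11b. CCAAT boxes are marked in the Rab6a window and a GC box in that of Rab6b.

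Interior peaks were found in 8 members (7.69%), beside 4.58% of all protein-coding genes, and 3 of the 8 also had a gene-end peak. Rab7 had an interior peak of 118 (chromosome 6, 88033618 to 88034622), higher than the 106 at its start and 11150 bp downstream of it. Vps13b had one of 80.8, 228625.5 bp from its nearer end, and Vps33a one of 61.2, 10505 bp from its nearer end. Rab27b (71.5), Rab3c (66.8) and Rab11fip3 (56.2) had an interior peak only, each over 10 kb from an end. Interior positions are most plentiful in long genes, and among genes over 100 kb 3 of 14 members had an interior peak (21.4%), beside 18.9% of 2429 protein-coding genes.

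The remaining interior peaks lay near a start that the gene's outermost end does not show. The peak of the ESCRT-II gene Vps25 scored 52.3 and its nearer edge lay 1064 bp from the annotated end of the gene, just outside the window. The start listed for Vps25 in the promoter table lies 1381 bp inside that end, and the midpoint was 11 bp upstream of it. Vps45, an SM protein of endosome fusion, had a peak of 50.3 that lay 1472 bp from the gene's end and had its midpoint 555.5 bp downstream of the listed start. Counted from the listed start, 22 of 78 members had a start peak (28.2%), and 13.9% of 17492 protein-coding genes. Of genes with no peak at an end or inside, Rab11fip5 came nearest, with a peak edge 1237 bp from an end.

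Of the 28 gene-end peaks, 9 also reached an end of another protein-coding gene (32.1%), beside 24.9% of the 2466 peaks at ends of protein-coding genes. A further 4 reached a lncRNA or tRNA gene only. In 8 of the 9 pairs with a protein-coding neighbour the midpoint was nearer to the member. The exception among these was Vps29, with 65 bp to its own start and 7 bp to an end of Rad9b. The weak Vps51 peak lay 637.5 bp from Vps51 and 645.5 bp from Tm7sf2. Non-coding neighbours were nearer than the member at Rab5if (84.5 and 261.5 bp), Rab30 (23.5 and 201.5 bp) and Rab11a (57.5 and 232.5 bp). At Vps13b the lncRNA gene was farther than the member (1063 and 173 bp). For Vps52 the distances were close, 52 bp to its start and 62 bp to an end of Rps18, a ribosomal protein gene. Rab2b shared its peak with Tox4, Vps28 with Tonsl, Rab6a with Mrpl48, Rab1b with Klc2, Rab4b with Mia, and Vps51 with Tmem262 and, for the weak peak, Tm7sf2. A peak between close ends cannot be given to 1 gene from its position. Members with another protein-coding gene end within 1 kb of their start had a start peak in 6 of 15 cases (40.0%), beside 31.1% of all such genes. Those without such a neighbour had one in 14 of 63 cases (22.2%), beside 10.2% of all such genes.

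The number of CpG dinucleotides in the promoter was set beside the peaks. Members with a peak at the listed start had a median of 24.5 CpG in the 300 bp window, from 13 to 41, and members without one had 20.5, from 1 to 49, so the groups overlapped widely. Within the Rab genes the medians were 25 with a start peak and 19.5 without, and within the Vps genes 22.5 with and 21.5 without. All protein-coding genes with a start peak had a median of 22 CpG and those without one 10. Of the 78 members 61 had 15 or more CpG, and of all 17492 promoters 8284 did. Among promoters with 15 or more CpG, 34.4% of members had a start peak, beside 23.4% of 8284 protein-coding promoters. By family this was 12 of 42 Rab promoters (28.6%) and 9 of 19 Vps promoters (47.4%). The share with a start peak did not go on climbing with CpG number: it was 37.0% of members with 15 to 24 CpG and 32.4% with 25 or more, beside 25.5% and 21.5% of all promoters. What part CpG number has in the family shares was not tested.

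**Figure D4:**
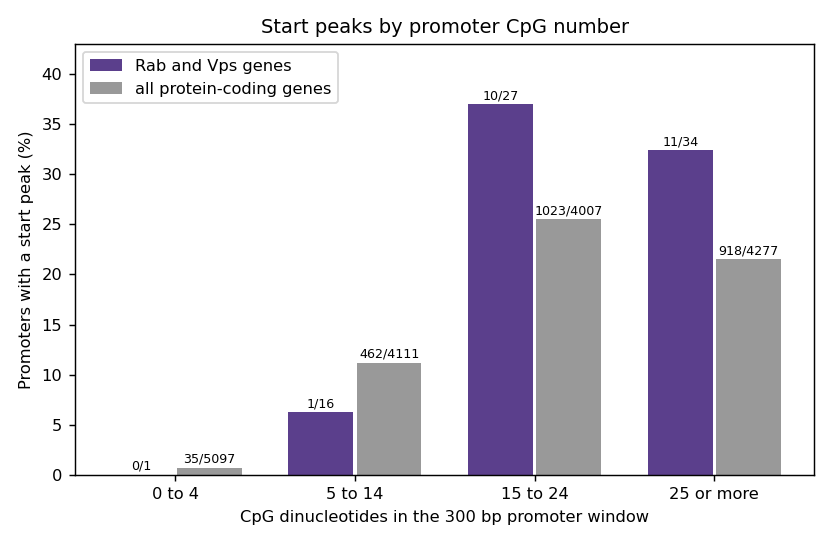
Percent of promoters with a peak within 1 kb of the listed start, by the number of CpG dinucleotides in the 300 bp window, for Rab and Vps genes (purple, n = 78) and all protein-coding genes (grey, n = 17492), with counts above the bars. The purple bar is the lower one in the class of 5 to 14 CpG (6.25% and 11.2%) and the higher one in the classes of 15 to 24 (37.0% and 25.5%) and of 25 or more CpG (32.4% and 21.5%).

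Short motifs were counted on both strands of the same windows. Matches of different motifs can share bases, and each motif was counted on its own. A CCAAT box was in 13 of 22 member promoters with a start peak (59.1%) and in 17 of 56 without one (30.4%), beside 39.2% of all promoters. Over all protein-coding genes the CCAAT share was 38.5% with a start peak and 39.3% without. An ETS core was in 7 of 22 member promoters with a start peak (31.8%) and 6 of 56 without one (10.7%), beside 11.9% of all. Those 7 were Rab5if, Rab8a, Rab11a, Vps18, Vps25, Vps26c and Vps52. Over all protein-coding genes the ETS shares were 26.0% with a start peak and 9.63% without. A GC box was in 81.8% of member promoters with a start peak and 67.9% without, beside 62.8% and 43.6% over all protein-coding genes. What part the GC content of the windows has in these shares was not tested. The E-box CACGTG, which the lysosomal regulator Tfeb can bind, was in 1 of 22 member promoters with a start peak, that of Vps33a, and in 9 of 56 without one (4.55% and 16.1%), beside 7.91% of all promoters. Over all protein-coding genes the order was the other way round, with 11.5% with a start peak and 7.33% without. TGACG, the core of cyclic AMP response elements, was in 12 of 22 with a start peak (54.5%) and 29 of 56 without one (51.8%), beside 37.4% and 21.6% over all protein-coding genes. TATAAA was in 2 of 22, Rab7 and Vps13d, and in 5 of 56 (9.09% and 8.93%), beside 6.93% and 14.4% over all protein-coding genes. The palindrome marked at Rab33b was in 127 promoters of the table, 0.726% of all, and 92 of them had a start peak (72.4%). A match is only a match of letters and none of these counts was tested.

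Other trafficking genes that are no members were counted from 9 lists. Of 232 such genes 75 had a gene-end peak (32.3%), beside 13.9% of all protein-coding genes and 26.0% of the Rab and Vps genes. No difference between these shares was tested. Genes that prenylate and escort Rab proteins had 3 of 8, led by Gdi2 (97.4), which extracts Rab proteins from membranes, and Rabggta (92.1). Effectors and exchange factors of endosomal Rab proteins had 5 of 18, led by Ankfy1 (211), an effector of Rab5, and Rilp (157), an effector of Rab7. DENN domain genes, many of them for Rab exchange factors, had 1 of 15 (6.67%, exact upper 95% limit 31.9%), Madd (98.9). TBC domain genes, many of them for Rab GTPase-activating proteins, had 12 of 36, led by Tbc1d10b (141) and Tbc1d17 (133).

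The other ESCRT and VPS34 complex genes had 12 of 26 (46.2%, beside 13.9% of all protein-coding genes). These were led by Hgs (151), which gathers ubiquitinated cargo, and Vta1 (148), a cofactor of Vps4. Other retromer, HOPS and CORVET genes and their partners had 4 of 16, led by Snx17 (174), the cargo adaptor of retriever, and Washc1 (66.7). Exocyst, COG and TRAPP tethers had 8 of 31, led by Cog7 (150) and Exoc2 (129.8). SNARE genes had 12 of 39, led by Stx16 (166) and Vti1a (122). Coat and adaptor genes had 18 of 43 (41.9%), led by Sec13 (174), a COPII subunit, and Ap3s1 (157).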

How the data were processed

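The authors called peaks with MACS in Galaxy, per the file headers, and Bowtie, Picard and mm10 appear in the submitters' processing notes; versions, MACS settings and the role of the IgG library were not given in the sources used. Each deposited peak has a score from the caller, compared here only between peaks of the list. Peak starts were made 1-based. Genes and promoters came from RefSeq tables of GRCm38.p6. Strand and promoter sequence were matched by gene ID for 78 of 104 members, with 250 bases before and 50 after the start. A gene's promoter was the listed start nearest its outermost end. Gene-end windows were 1 kb and the minimum overlap 1 bp. Shares have exact Clopper-Pearson 95% intervals. The overlap code was tested on simulated peaks. No set test was run. Python 3.11.15, pandas 2.3.3 and SciPy 1.17.1 were used.

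Every member with a peak was named, with the 2 highest-scoring genes of each pathway list. Members and lists were chosen with earlier results of these data known. Windows, overlap rules, a score threshold, chromosomes, shared peaks and the member set were varied.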

Additional observations from a re-analysis of the deposited data

How the results depend on the processing

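The count of 27 members with a gene-end peak was the same 27 genes with a 500 bp window, with the midpoint or 50% of the peak in the window, and without chromosomes X and Y. Leaving out X and Y could not change any member count, since no member there had a peak. The gene-end count was 34 with a 5 kb window, 26 without peaks at tRNA, snRNA or snoRNA genes, and 19 without peaks at ends of 2 or more coding genes. With peaks at or above the median score it was 19, of which 8 Rab genes (11.6%) and 11 Vps genes (31.4%), and start peaks numbered 13 and interior-only genes 1; with a 5 kb window 3 genes had an interior peak only. The share of all protein-coding genes was 13% with 500 bp, 18.3% with 5 kb, 13.1% by midpoint, 13.1% by 50% of the peak, 7.99% at or above the median score, 14.5% without X and Y, and 8.42% without shared peaks. Start peaks at any listed start, chosen after seeing the data, numbered 22. In all, 45 of 56 alternative values lay within 1.5 times the reported count, or, for the share and the score median, within its 95% interval. No paired analysis was possible because each antibody had 1 library and the results come from no test. Unknown read depth limits every absent peak.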

Other observations

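The COMMD and Commander genes, which work with retriever, were counted after the retriever genes had been seen. Of 13 genes, 4 had a gene-end peak (30.8%), beside 13.9% of all protein-coding genes, and the difference was not tested. These were Commd2 (165), Commd10 (78.4), Commd4 (59.1) and Commd5 (51.9). Commd1, Commd3, Commd6, Commd7, Commd8, Commd9, Ccdc22, Ccdc93 and Dennd10 had none. Members with a gene-end peak had a median length of 22.0 kb and members without one 27.6 kb; for all protein-coding genes the medians were 18.1 kb with a peak and 17.0 kb without.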
